A study of Mus musculus with 16 samples.

Results

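The 47 genes described here encode the working parts of the lysosome other than the cathepsins. They were taken from the count table by gene symbol, 47 of 55385 listed genes, and fall into 7 classes: 7 membrane proteins, 4 lumenal cofactors, 7 hydrolases of protein, lipid and phosphate, 13 glycosidases and sulfatases, 6 subunits of the membrane sector (V0) and 8 of the catalytic sector (V1) of the proton pump, and 2 accessory proteins of the pump. All 47 passed the filter on low counts, which left 14513 genes for testing, although Atp6v0d2 passed through the groups with the transgenes, where alone its counts are high. RNA was sequenced from CD11b+ cells, which are microglia and other myeloid cells, isolated with magnetic beads from brains whose meninges and choroid plexus had been taken off. The 16 libraries came from female mice of 20 weeks, 4 of each genotype. WT mice carried neither the transgenes nor the Card9 deletion, Card9-/- mice lacked the gene of the adaptor protein CARD9, 5xFAD mice carried the transgenes with Card9 intact, and Card9-/-5xFAD mice had both. The 5xFAD transgenes are expressed in neurons, and Aβ accumulates in the brain of these mice. The labels do not say whether each library came from 1 mouse, and p-values then measure the spread between these libraries.

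A lysosome digests what a cell takes up. The V-ATPase, a rotary pump, uses ATP bound by the V1 sector to drive protons through the V0 sector into the lumen, and the acid activates the hydrolases. Glycoproteins such as LAMP1 and LAMP2 line the inner face of the membrane, transporters such as NPC1 and cystinosin export the products, and small proteins such as NPC2 and the saposins present lipids to the enzymes. Loss of most of these genes causes a lysosomal storage disease in humans. Microglia carry many lysosomes and digest Aβ, myelin and dead cells in them.

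Totals per library ran from 2970148 to 19333325 counts (median 7944265), of which the 47 genes took 1.04% to 2.98%. The defining markers of microglia were present in every library, with a summed level of 19712 to 35606 CPM, the read count scaled to library size, while the 8 neuronal markers summed to 1.94 to 20.6 CPM. Card9 itself stood at 36.9 ± 16.3 CPM in WT and 29.1 ± 8.36 CPM in Card9-/- (SD, n = 4), and at 27.7 ± 8.28 and 20.2 ± 11.8 CPM in 5xFAD and Card9-/-5xFAD. These ranges overlapped (mean Card9 effect −0.39 ± 0.32 SE in log2, FDR 0.68), so counts summed over the gene do not check the genotype, and Card9-/- below means the libraries labelled so. In 1 library of each genotype (WT replicate 1, Card9-/- replicate 4, 5xFAD replicate 1 and Card9-/-5xFAD replicate 4) the first principal component of the 14466 tested genes that are not among the 47, which held 46.8% of the variance, lay between −118 and −77.7, against −29.9 to 72.1 in the other 12. These 4 libraries had 3.92% to 5.73% of their counts on ribosomal protein genes, against 0.863% to 3.11%. Their totals were 5346747, 3229322, 7188423 and 2970148 counts in the order named, the lowest of the genotype in all but 5xFAD. Their endothelial markers summed to 88.3 to 262 CPM against 41.9 to 85.2 CPM. Their neutrophil markers summed to 2097 to 6297 CPM against 487 to 2360 CPM, their choroid plexus markers to 1205 to 3002 CPM against 3.16 to 1190 CPM, and their monocyte markers to 194 to 380 CPM against 51.6 to 165 CPM. The part of these differences in the results was not tested. Counts of called genes among the 47 are given with and without the 4 libraries. Counts at an unadjusted p, of genes without overlap and of genes above a median are given with all libraries only.

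With the transgenes, 12 of the 47 genes rose and 1 fell. This is the mean transgene effect, the average of 5xFAD against WT and Card9-/-5xFAD against Card9-/-, tested with edgeR's quasi-likelihood fit of all 16 libraries at a false discovery rate (FDR) under 0.1 adjusted over all genes tested. The 13 genes called are 27.7% of the list, beside 11.3% of all genes tested, and the 12 that rose are 25.5%, beside 5.62%. The genes that rose were the lipid carrier Npc2, the thioesterase Ppt1, the glycosidases Gla, Glb1, Gusb and Hexa, the V0 subunits Atp6v0b, Atp6v0c, Atp6v0d2 and Atp6v0e, and the V1 subunits Atp6v1d and Atp6v1g1. The gene that fell was the sulfatase Sgsh, beside 5.73% of all genes. In bulk RNA, fewer or more cells of a type and less or more RNA per cell cannot be told apart. The median log2 fold change of the 47 genes was 0.32, beside −0.15 over all genes tested, and 41 of the 47 lay above that median. Without the 4 libraries that stood apart, a choice made after the data were seen, 23 genes were called (21 higher and 2 lower) beside 34.5% of all genes, and all 13 were among them. With all libraries but 1, the count fell to 7 without WT replicate 4, 5xFAD replicate 2 or 5xFAD replicate 3, beside 6.39%, 6.76% and 6.65% of all genes, and to 8 without Card9-/- replicate 2, beside 6.71%. Same-numbered libraries of each Card9 genotype were also taken as pairs, a pairing that the labels do not give. It was chosen after correlations in these data were seen, so its calls are no independent support. It also joined the libraries that stood apart, WT 1 with 5xFAD 1 and Card9-/- 4 with Card9-/-5xFAD 4 (correlations 0.71 and 0.73). The paired fit called 22 genes, or 46.8% of the list beside 41.9% of all genes. The share in either direction was thus near that of all genes. Of these 19 were higher (40.4%, beside 18.1%), and 3 were lower (Sgsh, Ctns and Acp2). All 13 were among them, and Lamp2, Grn, Gm2a, Atp6v0d1, Atp6v1c1, Atp6v1e1 and Atp6v1f were the others that were higher.

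Markers of other cells also moved with the transgenes. The 7 markers of border-associated macrophages summed to 1064 to 1732 CPM in WT and 608 to 847 CPM in 5xFAD, without overlap, and to 981 to 1940 CPM and 420 to 1825 CPM in Card9-/- and Card9-/-5xFAD. Neuronal markers were at 5.41 to 10.2 CPM in WT and 3.79 to 4.93 CPM in 5xFAD, and the groups labelled Card9-/- overlapped. The summed markers of the other cell types, microglia included, overlapped between the groups of both comparisons. The part of these differences in the changes of the 47 genes was not tested.

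**Figure D1:**
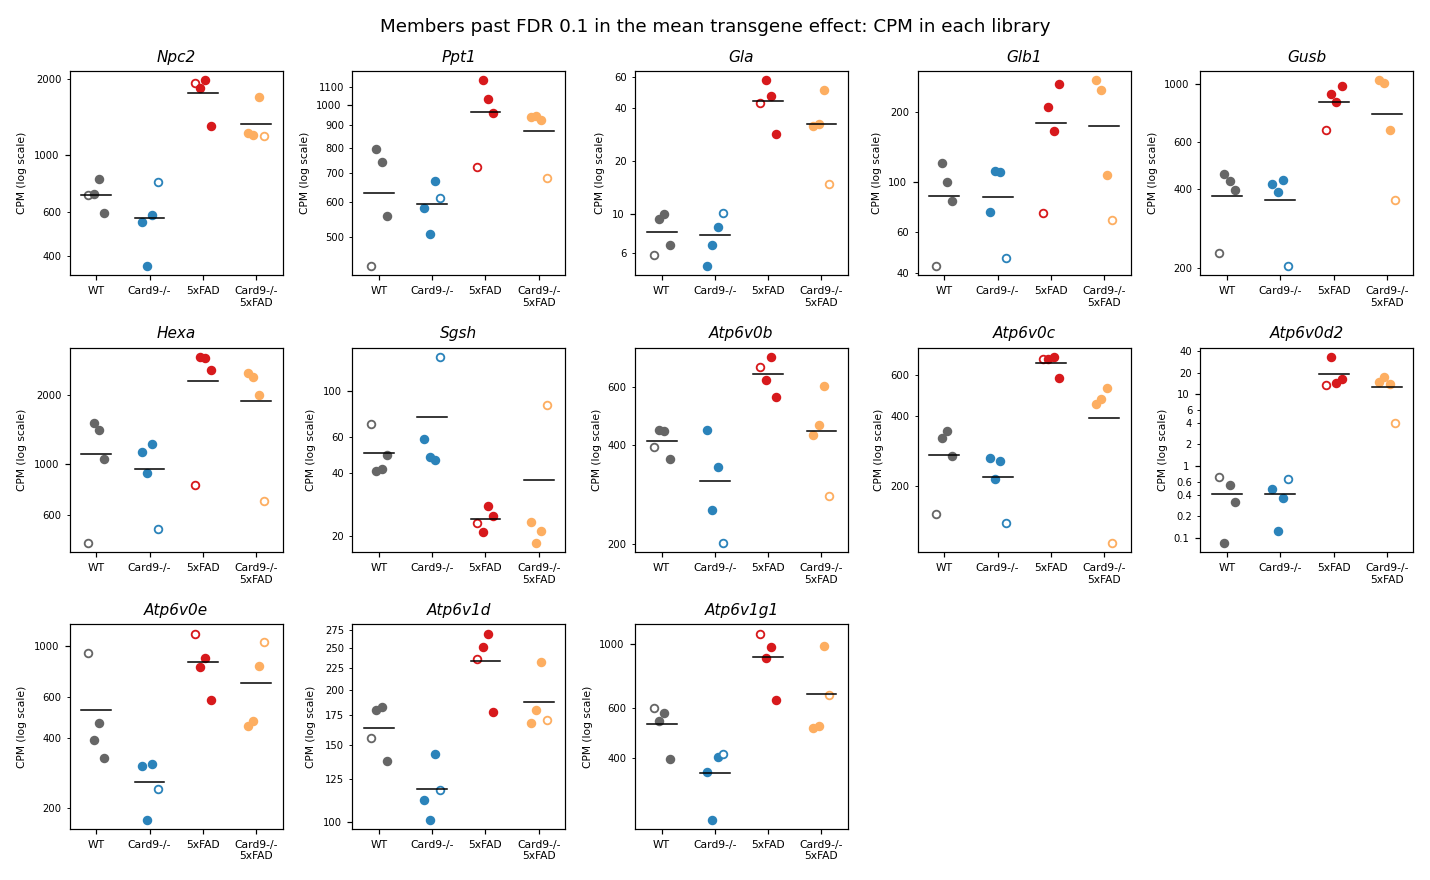
CPM (log scale) in each library of the 13 genes past an FDR of 0.1 in the mean transgene effect, by genotype, with 1 point for each of 4 libraries and a line at the mean. Open points are the library of lowest first principal component in each genotype. Gla, Npc2 and Atp6v0d2 are higher in all 8 libraries with the transgenes than in all 8 without, and Sgsh is lower in 7 of 8.

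The effect was seen in both Card9 genotypes, and each comparison alone called fewer genes. In 5xFAD against WT 3 genes were called, all higher (Npc2, Gla and Atp6v0d2), beside 2.09% of all genes tested in either direction and 1.57% higher. In Card9-/-5xFAD against Card9-/- 4 were called, all higher (the same 3 and Atp6v0e), beside 1.97% in either direction and 1.49% higher. The medians of the 47 genes were 0.29 and 0.25, beside −0.15 in both over all genes. All 4 libraries with the transgenes lay above all 4 without in 7 genes in each comparison, beside 4.35% and 3.53% of all genes, and below them in 1 (Sgsh) and 0, beside 3.69% and 3.48%. At an unadjusted p under 0.05 there were 12 and 10 genes, beside 10.8% and 12.2% of all genes. Without the 4 libraries that stood apart 11 genes were called in the first comparison (10 higher) beside 7.97% of all genes, and 18 in the second (17 higher) beside 16.7%. The first count rose to 5 without Card9-/-5xFAD replicate 4, beside 2.37%, and the second fell to 2 without Card9-/- replicate 1, 2 or 3 or Card9-/-5xFAD replicate 3, beside 0.804% to 1.15%. With the paired libraries 17 genes were called in the first (16 higher), beside 16% of all genes and 8.93% higher, and 15 in the second (14 higher), beside 20.4% and 11.2% higher.

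**Figure D2:**
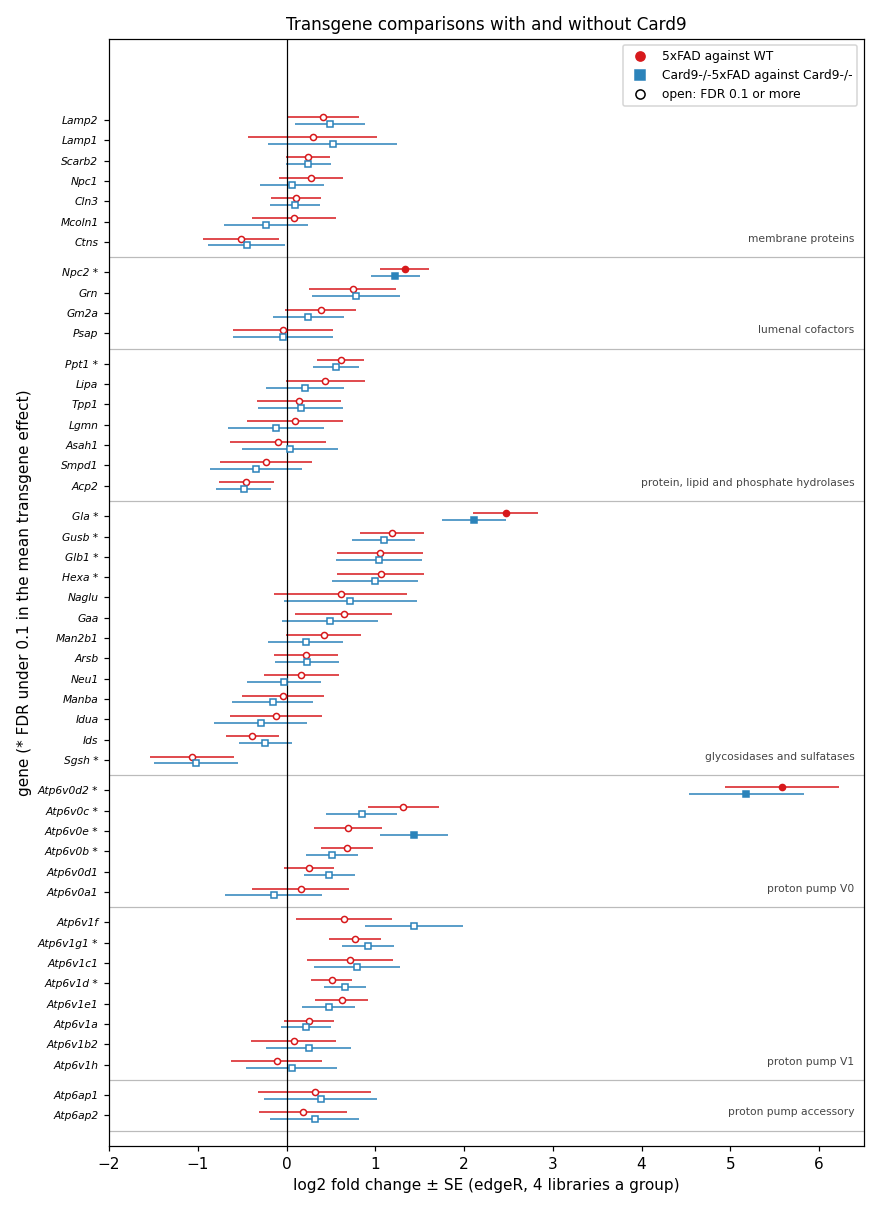
Log2 fold change ± SE (x axis) of each of the 47 genes (y axis, by class, ordered within a class by the mean transgene effect) in 5xFAD against WT (circles) and Card9-/-5xFAD against Card9-/- (squares), 4 libraries a group. Filled symbols have an FDR under 0.1, asterisks mark genes called in the mean transgene effect. Atp6v0d2 lies at 5.58 and 5.18, Gla at 2.47 and 2.11, and Sgsh at −1.06 and −1.02.

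The promoters of many lysosomal genes hold an E-box whose longer palindromic form is known as the CLEAR element, read by TFEB and related factors. It is shown here because genes that were called and genes that were not both carried it, and its part in the changes was not tested. Promoters from 250 bases before to 50 bases after the start were taken from RefSeq (GRCm38.p6), which had an entry for 40 of the 47 genes. The core CACGTG, a palindrome and so the same on both strands, was in 13 of 40 (32.5%), beside 11.8% of the 9710 tested genes with an entry. TCACGTGA was in 6 of 40 (15%), beside 2.23%, and the form with a further G before and C after it in 1 of 40 (2.5%), beside 0.814%, each longer form containing the shorter. Of the 11 called genes with an entry 5 had the core (45.5%), and of the 29 not called 8 had it (27.6%). All sites of the called genes are given first, then 1 site of each of the 8 genes that were not called, each in 30 bases of the gene's strand with the longest form in capitals. Not printed are 3 further core sites of Lamp1 and 1 each of Mcoln1 and Cln3.
Gla, chrX:134601215-134601244, minus strand: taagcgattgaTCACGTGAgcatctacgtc
Gla, chrX:134601182-134601211, minus strand: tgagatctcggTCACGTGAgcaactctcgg
Atp6v0e, chr17:26676387-26676416, plus strand: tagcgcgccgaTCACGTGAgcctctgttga
Glb1, chr9:114401018-114401047, plus strand: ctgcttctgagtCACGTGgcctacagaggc
Atp6v0b, chr4:117887348-117887377, minus strand: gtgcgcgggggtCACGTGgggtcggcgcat
Atp6v0b, chr4:117887330-117887359, minus strand: gggtcggcgcatCACGTGcgccggtcaggt
Sgsh, chr11:119355522-119355551, minus strand: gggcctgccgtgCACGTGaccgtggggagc
Cln3, chr7:126583340-126583369, minus strand: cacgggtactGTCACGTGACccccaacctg
Mcoln1, chr8:3500462-3500491, plus strand: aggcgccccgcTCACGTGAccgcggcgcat
Atp6v0d1, chr8:105566050-105566079, minus strand: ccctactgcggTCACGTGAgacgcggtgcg
Atp6v1a, chr16:44139373-44139402, minus strand: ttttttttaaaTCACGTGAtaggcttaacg
Lamp1, chr8:13159088-13159117, plus strand: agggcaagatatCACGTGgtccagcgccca
Lgmn, chr12:102439124-102439153, minus strand: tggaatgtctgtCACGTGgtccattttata
Gaa, chr11:119267811-119267840, plus strand: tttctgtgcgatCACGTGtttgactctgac
Naglu, chr11:101070009-101070038, plus strand: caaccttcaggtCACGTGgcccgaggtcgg
The 2 sites of Gla begin 228 and 195 bases before its RefSeq start, and that of Atp6v0e begins 2 bases after its start. Of the 6 genes with TCACGTGA, Gla and Atp6v0e rose. Cln3, Mcoln1, Atp6v0d1 and Atp6v1a had mean transgene effects of 0.10, −0.07, 0.37 and 0.24 in log2 and were not called with all libraries. Atp6v0d1 and Atp6v1a were called higher without the 4 libraries that stood apart. Lamp1, Lgmn, Gaa and Naglu, with the core alone, had effects of 0.41, −0.01, 0.57 and 0.66 and were not called either. Gaa and Naglu were called higher with the first principal component as a covariate. Sgsh, which fell, and Glb1 and Atp6v0b, which rose, each had the core without the longer form.

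No membrane protein was called in any of the 7 contrasts. With the paired libraries, a pairing taken from these data, Lamp2 was called higher (0.43 ± 0.15, FDR 0.046) and Ctns lower (−0.53 ± 0.16, FDR 0.028). Without pairing, the mean transgene effects of the class ran from −0.48 ± 0.31 (SE) for Ctns, the cystine exporter, to 0.45 ± 0.28 for Lamp2 (FDR 0.37 and 0.36). Their median was 0.17. Levels were compared per kb of exon, with all annotated exons of a gene joined. That length can exceed the length of the transcript expressed, so ranks per length here and below are rough. On this measure Lamp1 had the highest level of the class (263 CPM per kb over the 16 libraries). Mcoln1, a calcium channel, had the lowest (9.87 CPM per kb). Lamp1 stood at 172, 848, 791 and 951 CPM in WT replicates 1 to 4, at 1027, 644, 191 and 237 CPM in Card9-/-, at 294, 702, 895 and 1491 CPM in 5xFAD, and at 1629.8, 922, 276 and 175 CPM in Card9-/-5xFAD. The SD within a genotype, 352 to 673 CPM, exceeded the differences between genotype means, and its low values came from the 4 libraries that stood apart and from replicate 3 of both groups labelled Card9-/-. Without those 4 libraries Lamp2 and Scarb2, the receptor that carries glucocerebrosidase to lysosomes, were called higher (log2 0.50 ± 0.15, FDR 0.031, and 0.31 ± 0.13, FDR 0.094).

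Among the 4 lumenal cofactors Npc2, which picks cholesterol from digested lipoproteins and hands it to NPC1, rose. It stood at 697, 703, 806 and 592 CPM in WT, at 544, 366, 582 and 781 CPM in Card9-/-, at 1931, 1837, 1976 and 1305 CPM in 5xFAD, and at 1221, 1195, 1699 and 1189 CPM in Card9-/-5xFAD. All 8 libraries with the transgenes lay above all 8 without, as did 3 of the 47 genes (Npc2, Gla and Atp6v0d2) and 1.19% of all genes tested. The log2 fold change was 1.33 ± 0.28 (SE) in 5xFAD against WT (FDR 0.020), 1.22 ± 0.28 in Card9-/-5xFAD against Card9-/- (FDR 0.042) and 1.28 ± 0.20 on average (FDR 0.00077). The call in the second comparison was lost without Card9-/- replicate 1, 2 or 3 or Card9-/-5xFAD replicate 3 (FDR up to 0.165), with no filter on low counts (FDR 0.221) and with only the groups compared (FDR 0.281). That in the first was lost with no filter (FDR 0.146). The mean effect passed in all of these that give it.

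Npc1, which encodes the membrane partner of NPC2, was not called (mean effect 0.17 ± 0.25, FDR 0.74). Grn, which encodes progranulin, was the most abundant cofactor per length (721 CPM per kb). It stood at 793, 2627, 2591 and 2141 CPM in WT, at 2104, 1658, 2073 and 890.4 CPM in Card9-/-, at 1243, 4333, 3898 and 4183 CPM in 5xFAD, and at 4014, 4065, 2393 and 1068 CPM in Card9-/-5xFAD. In each genotype its lowest value was that of the library that stood apart. Its mean effect was 0.76 ± 0.35 (FDR 0.20), and without those 4 libraries it was called higher (0.83 ± 0.16, FDR 0.0034). Psap, the saposin precursor, had the lowest mean effect of the class (−0.04 ± 0.40, FDR 0.97), and Gm2a, the activator that HEXA needs to digest GM2 ganglioside, had 0.32 ± 0.28 (FDR 0.54).

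Of the 7 hydrolases of protein, lipid and phosphate only Ppt1 was called with all libraries (14.3%, beside 11.3% of all genes), and the class median was −0.01. PPT1 removes palmitate from proteins. Its level was 428, 796, 742 and 557 CPM in WT, 582, 506, 670.1 and 614 CPM in Card9-/-, 721, 1142, 1034 and 959.9 CPM in 5xFAD, and 942, 943, 926 and 679.6 CPM in Card9-/-5xFAD. Of the 8 libraries with the transgenes 6 lay above all of those without. On average the change was 0.58 ± 0.19 (FDR 0.072). It missed the threshold without any 1 of 9 libraries (WT replicates 3 and 4, Card9-/- 1 and 2, 5xFAD 2 and 3, and Card9-/-5xFAD 1, 2 and 3, FDR up to 0.163) and with no filter on low counts (FDR 0.299).

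Lgmn, which encodes the asparaginyl endopeptidase legumain, had the highest level per length of all 47 genes (916 CPM per kb) and a mean effect of −0.01 ± 0.38 (FDR 0.99). It stood at 669.7, 2537, 2406 and 2970.01 CPM in WT, at 3380.3, 1751, 2116 and 1257 CPM in Card9-/-, at 884, 2255, 1919 and 4092 CPM in 5xFAD, and at 2657, 3073, 1374 and 716 CPM in Card9-/-5xFAD. The libraries that stood apart were the lowest of each genotype, and the genotypes overlapped throughout. The lowest effect of the class was that of the acid phosphatase Acp2, at −0.47 ± 0.22 (FDR 0.21), which was called lower without the 4 libraries (−0.44 ± 0.15, FDR 0.054).

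The 13 glycosidases and sulfatases, which take sugar chains and sulfate from glycoproteins, glycolipids and glycosaminoglycans, held both the largest rise outside the proton pump and the only fall. Gla, the α-galactosidase that is missing in Fabry disease, stood at 5.81, 9.33, 9.93 and 6.63 CPM in WT, at 5.04, 6.66, 8.48 and 10.1 CPM in Card9-/-, at 43.1, 58.0, 46.8 and 28.6 CPM in 5xFAD, and at 31.7, 32.4, 50.6 and 14.8 CPM in Card9-/-5xFAD. Every library with the transgenes exceeded every library without, the lowest being Card9-/-5xFAD replicate 4. The rise was 5.54-fold in 5xFAD against WT (log2 2.47 ± 0.37, FDR 0.0014) and 4.33-fold in Card9-/-5xFAD against Card9-/- (2.11 ± 0.36, FDR 0.0052). Its call in the mean effect (2.29 ± 0.26, FDR 3.35e-05) held without any 1 library. At 7.04 CPM per kb Gla was nonetheless among the least abundant of the 47 genes, ranking 45.

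Gusb, Hexa and Glb1, which encode β-glucuronidase, the α subunit of β-hexosaminidase and β-galactosidase, each rose. Gusb stood at 228, 454, 428 and 395 CPM in WT, at 417, 390.1, 433 and 203 CPM in Card9-/-, at 671, 920.3, 858 and 983 CPM in 5xFAD, and at 1035, 1009, 668 and 364 CPM in Card9-/-5xFAD. Of the 8 libraries with the transgenes 7 were above all 8 without, and the exception was Card9-/-5xFAD replicate 4. Its mean effect was 1.14 ± 0.25 (FDR 0.013) and held without any 1 library.

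Hexa, the most abundant gene of the class per length (780 CPM per kb), stood at 453, 1499.7, 1402 and 1054 CPM in WT and at 1132, 912, 1219.5 and 522 CPM in Card9-/-. It reached 806, 2921, 2888 and 2571 CPM in 5xFAD and 2481, 2383, 1985 and 691 CPM in Card9-/-5xFAD. Here 6 of 8 libraries with the transgenes lay above all without, the others being the 2 that stood apart. The mean effect was 1.03 ± 0.34 (FDR 0.086), and it missed the threshold without any 1 of 11 libraries (WT 1, 3 and 4, Card9-/- 1, 2 and 3, 5xFAD 2 and 3, Card9-/-5xFAD 1, 2 and 3, FDR up to 0.172) and with no filter on low counts (FDR 0.177). Without the 4 libraries that stood apart it was 1.11 ± 0.15 (FDR 0.00029).

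Glb1 stood at 42.8, 121, 99.8 and 82.2 CPM in WT, at 73.7, 111, 110.2 and 46.5 CPM in Card9-/-, at 72.6, 212, 166 and 267 CPM in 5xFAD, and at 277, 249.9, 106 and 68.1 CPM in Card9-/-5xFAD. The groups overlapped through the libraries that stood apart and Card9-/-5xFAD replicate 3. The mean effect was 1.05 ± 0.35 (FDR 0.082), and it missed the threshold without any 1 of 10 libraries (WT 1, 3 and 4, Card9-/- 1, 2 and 3, 5xFAD 2 and 3, Card9-/-5xFAD 1 and 2, FDR up to 0.164) and with no filter on low counts (FDR 0.135). Glb1 shares 165 bases of exon with Tmppe on the same strand, and reads there cannot be assigned to either.

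Sgsh, the sulfamidase of heparan sulfate breakdown, was the gene that fell. It stood at 69.2, 41.2, 42.1 and 49.0 CPM in WT, at 58.2, 48.2, 46.4 and 146 CPM in Card9-/-, at 23.1, 20.8, 27.7 and 24.8 CPM in 5xFAD, and at 23.2, 18.5, 21.2 and 85.3 CPM in Card9-/-5xFAD. All libraries with the transgenes but Card9-/-5xFAD replicate 4 were below all 8 without, and the 2 highest values were those of replicate 4 in both groups labelled Card9-/-. Its average change was −1.04 ± 0.34 (FDR 0.075). It missed the threshold under DESeq2's size factors (−0.98, FDR 0.101), when a count of 10 was required of each library (−0.92, FDR 0.130), with an early response covariate (−1.10, FDR 0.155) and without any 1 of 8 libraries (WT 4, the 4 of 5xFAD, and Card9-/-5xFAD 1, 2 and 3, FDR up to 0.137). Without Card9-/-5xFAD replicate 4 the effect was −1.44, and without the 4 libraries that stood apart it was −1.03 ± 0.145 (FDR 0.00043). Sgsh exons overlap those of Card14 on the other strand over 955 bases, and the strand setting of the counting is not given in the sources used here.

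The other 8 genes of the class (Gaa, Man2b1, Manba, Naglu, Neu1, Ids, Idua and Arsb) had mean effects from −0.31 to 0.66, none past an FDR of 0.1 with all libraries or without the 4. With the first principal component as a covariate Gaa, Man2b1, Naglu and Neu1 were called higher, beside 2408 of 14513 genes.

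The V0 sector of the proton pump had the highest median of the classes (0.83). Of its 6 subunits 4 were called, all higher (66.7%, beside 5.62% of all genes tested). Atp6v0d2, an isoform of the d subunit best known from osteoclasts, had the largest change of the 47 genes. Its raw counts were 4, 1, 5 and 3 in WT and 4, 3, 6 and 2 in Card9-/-, against 89, 241, 79 and 118 in the 5xFAD libraries and 151, 151, 81 and 10 in those of Card9-/-5xFAD. In CPM this was 0.0856 to 0.704 without the transgenes, and 13.5, 33.0, 14.2 and 16.1 CPM in 5xFAD and 14.9, 17.2, 14.1 and 4.00 CPM in Card9-/-5xFAD. No library with the transgenes overlapped one without. Summed over libraries, the level was 54.1 times higher in 5xFAD than in WT (95% exact counting interval 31.4 to 102) and 50.6 times higher in Card9-/-5xFAD than in Card9-/- (30.3 to 91.3). These intervals cover counting error only, and the sums weigh deep libraries more. The ratio of the mean CPM was 46.2 and 31.1, and the fitted fold 47.8 and 36.2. The fitted log2 changes were 5.58 ± 0.64 (FDR 0.00016) and 5.18 ± 0.65 (FDR 0.00040), and held without any 1 library. Since the gene passed the low-count filter only through the groups with the transgenes, these values describe its rise and add no separate support.

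The common isoform Atp6v0d1 had a mean effect of 0.37 ± 0.20 (FDR 0.29), and was called higher without the 4 libraries that stood apart (0.67 ± 0.18, FDR 0.018). Per kb of exon, Atp6v0d2 made up 0.127% to 0.732% of the sum of both isoforms in the 8 libraries without the transgenes, 11.3% to 25.3% in 5xFAD and 4.90% to 17.5% in Card9-/-5xFAD. Atp6v0d2 was the least abundant of the 47 genes over the 16 libraries (2.998 CPM per kb).

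**Figure D3:**
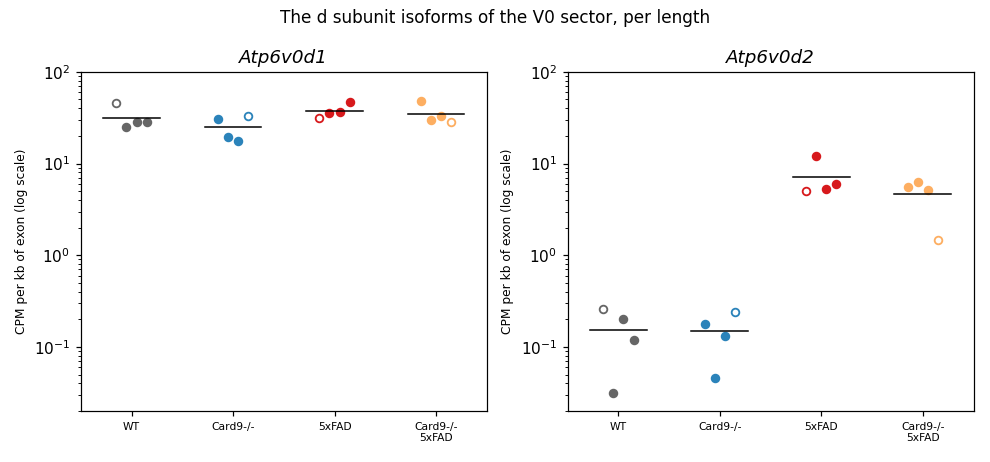
CPM per kb of exon (log scale) of Atp6v0d1 and Atp6v0d2 in each library by genotype, with a line at the mean of 4. Open points are the library of lowest first principal component in each genotype. Atp6v0d1 stays between 17.8 and 48.3 CPM per kb, while Atp6v0d2 goes from at most 0.259 CPM per kb without the transgenes to 1.47 to 12.2 CPM per kb with them.

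The proteolipid subunits of the rotor ring, Atp6v0b and Atp6v0c, and the small subunit Atp6v0e also rose. Atp6v0c stood at 151, 322, 344 and 269 CPM in WT, at 264, 214, 255 and 139 CPM in Card9-/-, at 705, 702, 717 and 580.5 CPM in 5xFAD, and at 448, 475, 529 and 114 CPM in Card9-/-5xFAD. All libraries with the transgenes but Card9-/-5xFAD replicate 4, the lowest of the 16, were above all without. On average it rose by 1.08 ± 0.28 (FDR 0.032) and held without any 1 library. Atp6v0c has pseudogenes (Atp6v0c-ps1 and Atp6v0c-ps2) that could share its reads.

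Atp6v0e stood at 932, 392, 463 and 327 CPM in WT and at 303, 177, 307 and 239 CPM in Card9-/-, and at 1132, 809, 891 and 584 CPM in 5xFAD and 450.4, 472, 822 and 1038 CPM in Card9-/-5xFAD. WT replicate 1 exceeded most libraries with the transgenes, while all 4 values of Card9-/- lay below all 4 of Card9-/-5xFAD. The change in that comparison was 1.44 ± 0.39 (FDR 0.094). It missed the threshold without any 1 of 11 libraries (WT 2 and 3, Card9-/- 1, 2 and 3, 5xFAD 2 and 3, and the 4 of Card9-/-5xFAD, FDR up to 0.306), with no filter, when a count of 10 was required of each library and with only the groups compared (FDR 0.197, 0.118 and 0.254). In 5xFAD against WT it was 0.69 ± 0.38 (FDR 0.54), and the mean effect of 1.07 ± 0.27 (FDR 0.027) held without any 1 library and missed with an early response covariate (0.79, FDR 0.106).

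Atp6v0b, the most abundant V0 subunit per length (222 CPM per kb), stood at 394, 445, 442 and 362 CPM in WT, at 444, 255, 344 and 202 CPM in Card9-/-, at 692, 632, 743 and 562 CPM in 5xFAD, and at 429.6, 459.7, 604 and 281 CPM in Card9-/-5xFAD. The 4 values of 5xFAD lay above all 4 of WT, and those of the groups labelled Card9-/- overlapped. Its mean effect of 0.59 ± 0.21 was close to the threshold (FDR 0.098). It passed without Card9-/- replicate 1, 5xFAD replicate 4 or Card9-/-5xFAD replicate 4, and missed without any of the other 13 libraries (FDR up to 0.205), with no filter (FDR 0.305) and with an early response covariate (0.57, FDR 0.171). Atp6v0a1, the large subunit through which protons pass, had the lowest effect of the sector, at 0.01 ± 0.39 (FDR 1.00).

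Of the 8 V1 subunits 2 were called, both higher (25%, beside 5.62% of all genes tested), with a class median of 0.57. Atp6v1d, part of the central shaft, stood at 155, 181, 183 and 138 CPM in WT, at 112, 101, 143 and 118 CPM in Card9-/-, at 236, 250.4, 269 and 178 CPM in 5xFAD, and at 168, 180.2, 231 and 171 CPM in Card9-/-5xFAD. In the groups labelled Card9-/- the values did not overlap, while 5xFAD replicate 4 lay within the range of WT. The mean effect was 0.58 ± 0.16 (FDR 0.045), and it missed the threshold without WT 4, Card9-/- 2, 5xFAD 2 or 5xFAD 3 (FDR up to 0.110), with no filter (FDR 0.2245) and with an early response covariate (0.51, FDR 0.112).

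Atp6v1g1, a subunit of the outer stalk, stood at 599.7, 539, 577 and 398 CPM in WT, at 358, 245, 405 and 416 CPM in Card9-/-, at 1088, 893, 979 and 639 CPM in 5xFAD, and at 510.1, 520.2, 986 and 666 CPM in Card9-/-5xFAD. Within each Card9 genotype all 4 libraries with the transgenes lay above all 4 without. The mean effect was 0.84 ± 0.21 (FDR 0.023) and held without any 1 library.

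Atp6v1f, the most abundant V1 subunit per length (568 CPM per kb), had the highest mean effect of the sector, 1.04 ± 0.39, but was not called (FDR 0.12). It stood at 1008, 336, 399 and 285 CPM in WT, at 254, 128, 267 and 558 CPM in Card9-/-, at 1126, 768, 779.7 and 504 CPM in 5xFAD, and at 383, 391, 868 and 1611 CPM in Card9-/-5xFAD. The highest value of each genotype was that of the library that stood apart. Without those 4 libraries it was called, at 1.21 ± 0.26 (FDR 0.0057). Atp6v1h had the lowest effect, at −0.03 ± 0.36 (FDR 0.97).

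Without the 4 libraries 6 of the 8 V1 subunits were called higher, beside 2523 of the 14352 genes tested there. The catalytic subunit Atp6v1a, Atp6v1c1 and Atp6v1e1 joined Atp6v1d, Atp6v1f and Atp6v1g1. Calls in either direction were 34.5% of all genes in that setting, against 11.3% with all libraries.

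Neither accessory protein was called with all libraries and no covariate. Atp6ap1, which helps to assemble the V0 sector, had a mean effect of 0.35 ± 0.45 (FDR 0.68) and Atp6ap2, the prorenin receptor, 0.25 ± 0.35 (FDR 0.71). Atp6ap1, the more abundant per length (198 CPM per kb), stood at 126, 821, 746 and 549.6 CPM in WT, at 564, 564, 676 and 162 CPM in Card9-/-, at 206, 883, 882 and 826 CPM in 5xFAD, and at 912, 906, 613 and 139 CPM in Card9-/-5xFAD. The library that stood apart was far below the other 3 in each genotype. Without those libraries Atp6ap1 was called higher (0.39 ± 0.15, FDR 0.079). With the first principal component as a covariate both accessory proteins were called higher (lowest FDR 0.018), beside 2408 of 14513 genes.

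**Figure D4:**
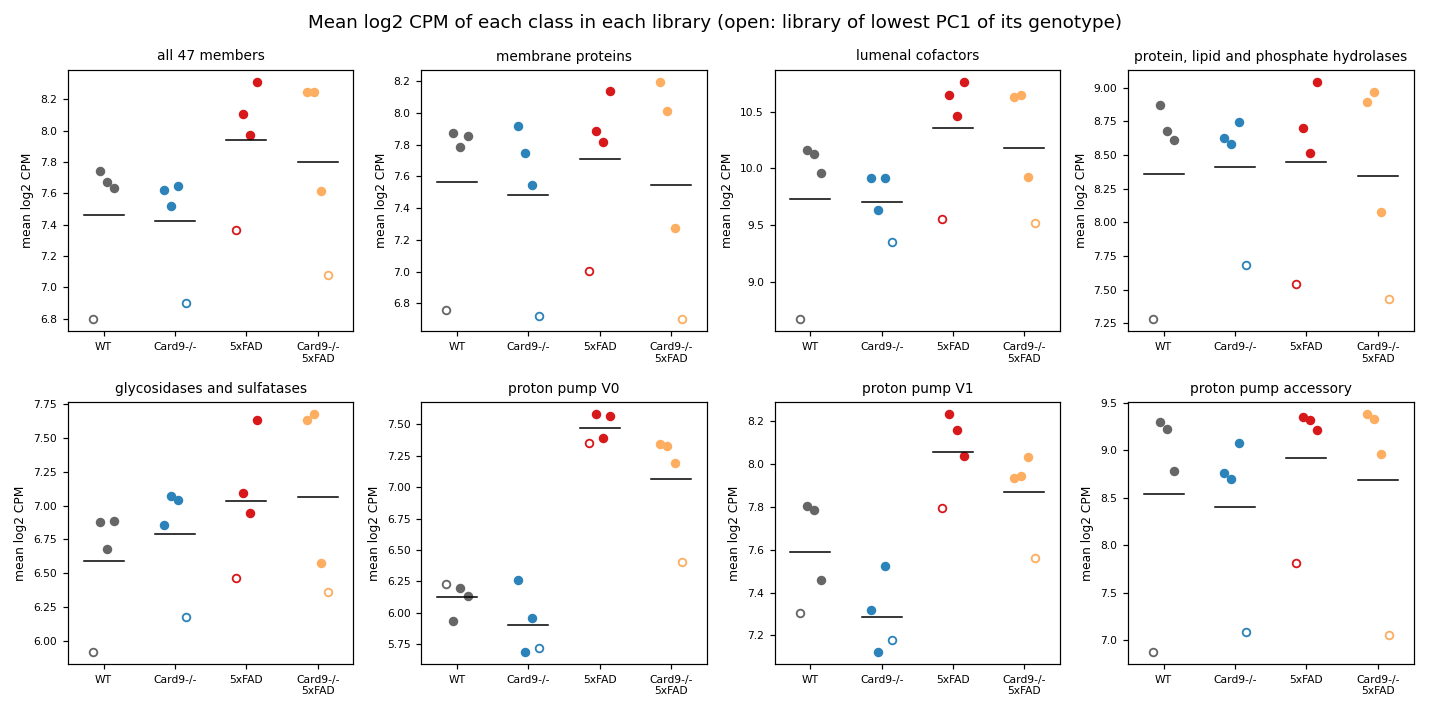
Mean log2 CPM of all 47 genes and of each class in each library by genotype, with a line at the mean of 4. Open points are the library of lowest first principal component in each genotype. The 5xFAD libraries of both proton pump sectors lie apart from WT or nearly so, while in the membrane proteins and hydrolases of protein, lipid and phosphate the open points are the lowest and the genotypes overlap.

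The levels of most of the 47 genes also differed in the libraries that stood apart. Of the 47 genes, 32 (68.1%) were lower in each of those 4 libraries than in the mean of the other 3 of the same genotype, beside 30.5% of the other genes tested, and 2 (Atp6v1f and Atp6v1g1) were higher in each, beside 29.7%. The 32 held all 7 membrane proteins, both accessory proteins, 6 of 7 hydrolases of protein, lipid and phosphate, 10 of 13 glycosidases and sulfatases and 3 of 4 cofactors, but 1 of 6 V0 and 3 of 8 V1 subunits. The median difference was −1.003 in log2. On the mean log2 CPM of the 47 genes these libraries stood at 6.80, 6.90, 7.37 and 7.08 in WT, Card9-/-, 5xFAD and Card9-/-5xFAD, against 7.63 to 7.74, 7.52 to 7.65, 7.97 to 8.31 and 7.62 to 8.25 in the others. Both among these 4 libraries and among the other 12 the libraries with the transgenes were higher, except that Card9-/-5xFAD replicate 3 (7.62) lay within the range without them. On the mean of the 5 V0 subunits other than Atp6v0d2, the 4 libraries of 5xFAD (8.06 to 8.27) lay above the 4 of WT (7.46 to 7.53), and those of Card9-/-5xFAD (7.27 to 8.03) overlapped those of Card9-/- (6.90 to 7.61).

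**Figure D5:**
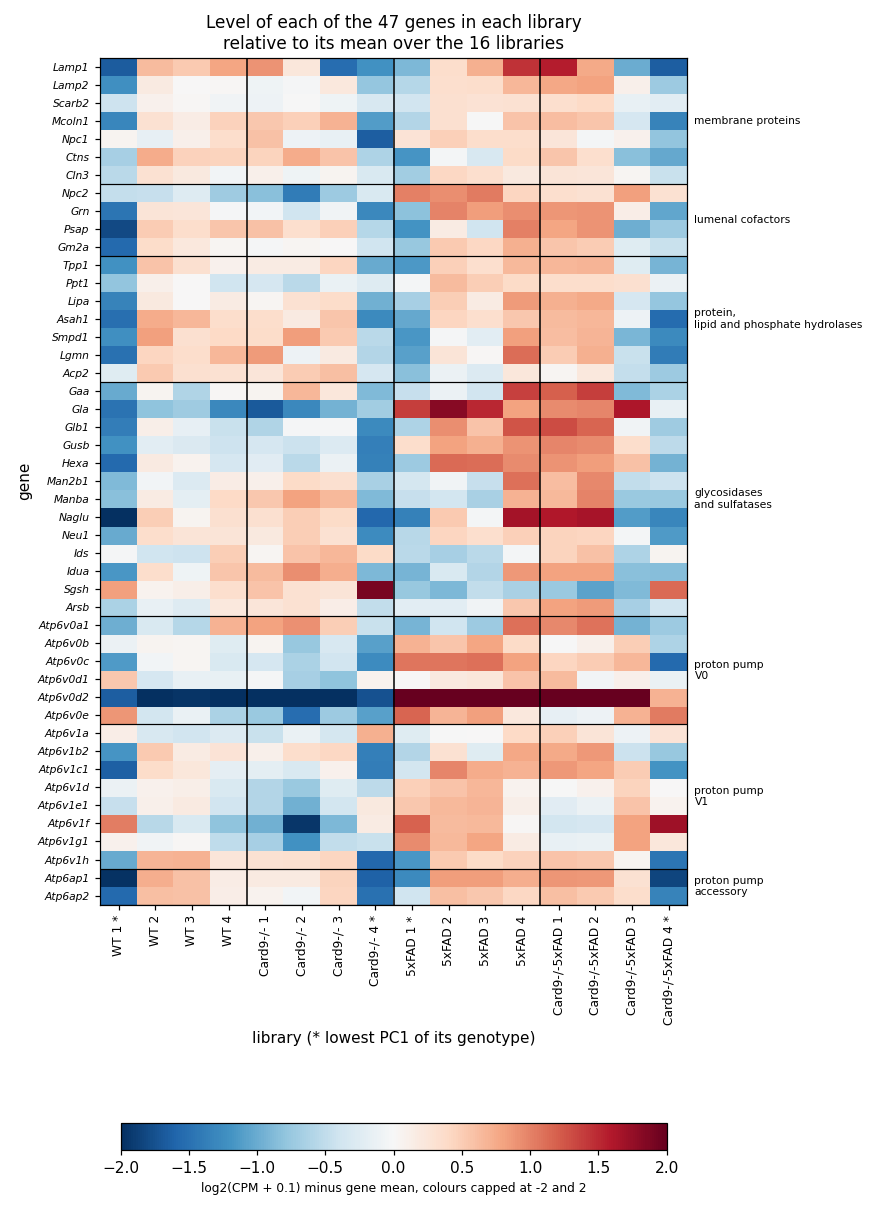
Level of each of the 47 genes (rows, by class) in each of the 16 libraries (columns, by genotype), as log2(CPM + 0.1) minus the gene's mean, with colours capped at −2 and 2. Asterisks mark the library of lowest first principal component in each genotype. Most rows are blue in those 4 columns. Npc2 and Atp6v0d2 are red in all columns with the transgenes, Gla in all but Card9-/-5xFAD replicate 4, and many pump subunits in most of them.

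No difference between the libraries with and without Card9 was detected in any of the 47 genes. With edgeR, 0 were called in Card9-/- against WT (background 0%), 0 in Card9-/-5xFAD against 5xFAD (background 0%), 0 in the mean Card9 effect (background 0.0276%) and 0 in the interaction of Card9 and the transgenes (background 0%). At an unadjusted p under 0.05 there were 1, 0, 5 and 0 genes, beside 4.11%, 2.52%, 9.12% and 0.537% of all genes tested. DESeq2 also called 0 in each, although 11 of the 47 had no adjusted p there in the mean Card9 effect. The medians of the 47 genes were −0.05, −0.07, −0.09 and −0.01, beside 0.11, 0.14, 0.13 and 0.02 over all genes.

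The 5 genes with an unadjusted p under 0.05 in the mean Card9 effect were Atp6v0e (−0.67 ± 0.27), Atp6v1g1 (−0.50 ± 0.21), Atp6v0b (−0.48 ± 0.21), Atp6v1d (−0.39 ± 0.16) and Ids, which encodes iduronate sulfatase (0.54 ± 0.21), with FDR of 0.52 for all. They are named after their values were seen. Of the 13 genes called for the transgenes, 12 had a negative and 1 (Sgsh) a positive estimate of the mean Card9 effect. These ran from −0.67 to 0.58, none called (lowest FDR 0.52). Among all 47 genes 29 were negative. The 13 genes were measured in the same 16 libraries, so their signs are not independent. Their interaction estimates ran from −0.47 for Atp6v0c to 0.74 for Atp6v0e, with SE of 0.33 to 0.90, so that differences of 1 log2 unit between the transgene effects with and without Card9 lay within the error of many of them.

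Of 66 other lysosomal genes that passed the filter, 14 were called in the mean transgene effect (12 higher and 2 lower), beside the same 11.3% of all genes. Of 23 other hydrolases, 7 rose and 1 fell. The largest rise was that of the dipeptidyl peptidase Dpp7 (1.71 ± 0.29, FDR 0.0017), and the phospholipase B-like Plbd1 fell by 1.34 (SE 0.24, FDR 0.00285). Of 21 other membrane proteins 2 rose, the tetraspanin Cd63 (1.99 ± 0.25, FDR 0.00012) and the macrophage glycoprotein Cd68 (1.40 ± 0.27, FDR 0.0045). Of 4 other pump isoforms Atp6v0e2 rose and Atp6v0a2 fell (−0.95 ± 0.32, FDR 0.089), and of 18 genes of sorting and delivery Gnptab and Lamtor1 rose. The count of 14 was 34 with the paired libraries, beside 41.9% of all genes, and 32 without the 4 libraries that stood apart, beside 34.5%. It was 7 to 9 without any 1 of WT replicates 3 and 4, Card9-/- replicates 1 and 2 and 5xFAD replicates 2 and 3. All genes were then called at 6.39% to 7.84%.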

How the data were processed

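The authors deposited raw read counts per gene, made from reads aligned to mm10. The submitters' processing notes name HISAT2, SAMtools and HTSeq, with versions and strand setting not given in the sources used here. The members and gene lists were chosen with earlier results of these data known. Counts of 16 libraries were fitted in 4 genotype groups with edgeR 4.0.16 in R 4.3.3 (quasi-likelihood test, TMM normalization, filterByExpr with a minimum count of 10, leaving 14513 genes), and p-values were adjusted over all genes tested by Benjamini-Hochberg, called at an FDR under 0.1. The mean transgene and mean Card9 effects average 2 comparisons. CPM used TMM library sizes. CPM per kb divided them by the joined length of all GENCODE exons of the gene, which can exceed that of the transcript expressed. Values per library are given for genes called in any contrast and for the most abundant of each class, and fold changes for the highest and lowest of each class. Gene symbols and overlaps came from GENCODE on GRCm38, promoters from RefSeq. Alternatives were DESeq2 1.42.0, its size factors, other filters and thresholds, a surrogate variable (sva 3.50.0), an early response covariate, a replicate block, each library left out and, chosen after seeing the data, 2 that address the libraries that stood apart and a block of paired libraries. Deviations from the group means correlated over 0.1 in all 4 same-numbered pairs of WT and 5xFAD (0.27 to 0.71) and of Card9-/- and Card9-/-5xFAD (0.13 to 0.73). This pairing was taken from the data and not from the labels, and some libraries of unlike number correlated more. The scripts were tested on simulated counts. With 2970148 to 19333325 counts a library, Atp6v0d2 was the gene limited by depth, with 1 to 6 counts in libraries without the transgenes.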

Additional observations from a re-analysis of the deposited data

Results flagged for a closer look

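Of 104 sets of 4 libraries (the mean log2 CPM of each class and the CPM of each gene given per library, by genotype), 17 held a library farther from the other 3 than Dixon's test allows at its 95% critical value. Chance flags about 1 in 20 sets, and 14 of the 17 were in the libraries of lowest first principal component. In WT, replicate 1 stood apart on the mean log2 CPM of all 47 genes (6.80, others 7.63 to 7.74), of the membrane proteins (6.75, others 7.79 to 7.87), of the lumenal cofactors (8.67, others 9.96 to 10.2) and of the hydrolases of protein, lipid and phosphate (7.28, others 8.61 to 8.87). It was high on Atp6v1f (1008 CPM, others 285 to 399). In Card9-/-, replicate 4 was low on the hydrolases of protein, lipid and phosphate (7.68, others 8.58 to 8.75) and high on Sgsh (146 CPM, others 46.4 to 58.2).

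In 5xFAD, replicate 1 was low on the accessory proteins (7.81, others 9.22 to 9.35), on Atp6ap1 (206 CPM, others 826 to 883), on Grn (1243 CPM, others 3898 to 4333) and on Hexa (806 CPM, others 2571 to 2921). Replicate 4 was low on Atp6v0c (580.5 CPM, others 702 to 717) and replicate 2 high on Atp6v0d2 (33.0 CPM, others 13.5 to 16.1). In Card9-/-5xFAD, replicate 4 was low on the V0 subunits (6.403, others 7.19 to 7.35) and on Ppt1 (679.6 CPM, others 926 to 943) and high on Sgsh (85.3 CPM, others 18.5 to 23.2), and replicate 3 was high on Npc2 (1699 CPM, others 1189 to 1221).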

How the results depend on the processing

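None of the 13 called genes changed sign under any alternative run. Of the 34 not called, 10 changed the sign of the mean transgene effect in at least 1, all with an effect of at most 0.29 in size (Lgmn, at −0.01, ran from −0.17 to 0.21). Shares of all genes with no filter and with DESeq2 are over 29950 genes, those of low counts included, and not over the 14513 used elsewhere. Genes with no adjusted p in DESeq2 count there as not called. These shares are therefore not directly comparable with the others. The count of 3 in 5xFAD against WT was 2 with no filter on low counts, beside 0.694% of all genes. It was 5 with DESeq2 and with edgeR on only the groups compared, beside 1.89% and 2.22%. With 1 surrogate variable it was 13, beside 8.62%. Without the 4 libraries of lowest first principal component it was 11, beside 7.97%. With that component as a covariate it was 16, beside 12.9%. The count of 4 in Card9-/-5xFAD against Card9-/- was 2 with no filter, beside 0.618%, and with only the groups compared, beside 0.708%. It was also 2 with at least 10 counts in every library (where Atp6v0d2 was not tested), beside 1.44%. It was 7 with DESeq2, beside 2.71%, and 16 with the surrogate variable, beside 12.5%. Under both of the last settings it was 18, beside 16.7% and 15.8%. The 13 of the mean transgene effect were 8 with no filter and at an FDR of 0.05, beside 3.57% and 6.34%. They were 27 with the surrogate variable, beside 31.5%, 23 without the 4 libraries and 31 with the covariate. The 14 other lysosomal genes were 8, 8, 33, 32 and 38 in the same settings. All genes tested moved as well, with 34.5% and 38.1% called in the mean transgene effect under the last 2 settings against 11.3%. The cause was not tested.

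Leaving out each library in turn gave 3 to 5, 2 to 6 and 7 to 15 genes in the 3 transgene comparisons, beside 1.1% to 2.6%, 0.804% to 4.84% and 6.39% to 20.5% of all genes, 7 to 19 other lysosomal genes, and a V1 median of 0.49 to 0.78. The 4 counts of 0 for Card9 and the interaction were 0 under every alternative run. With an early response covariate Atp6v0b, Atp6v0e, Atp6v1d and Sgsh missed the threshold, with effects of 0.57, 0.79, 0.51 and −1.10. The replicate number was also taken as a block over all 4 genotypes. The counts were then 3, 4 and 14 in the transgene comparisons, beside 2.11%, 2.34% and 12.9% of all genes. They were 0 in the other 4, and 16 for other lysosomal genes. The replicate block within each Card9 genotype was chosen after seeing the data. With it the counts were 17, 15 and 22, beside 16%, 20.4% and 41.9%. They were 0 in the interaction and 34 for other lysosomal genes, and this block ended no call. Over all genotypes 15 of 24 pairs of the same number had a correlation over 0.1 (−0.71 to 0.73). Some libraries of unlike number correlated more and others less. Card9-/- replicate 3 had 0.44 with Card9-/-5xFAD replicate 2 and 0.13 with replicate 3. WT replicate 1 had 0.80 with Card9-/-5xFAD replicate 4. Whether the number marks pairs of libraries is therefore not known. A fit on only the groups compared was not run for the mean effects and the interaction, which use all 4 groups.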
